A study of Mus musculus with 3 samples.

Results

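Dcc, Ephb2, Rgmb, Srgap3 and Lingo1 are genes of axon guidance and of growth inhibition in neurons. They were chosen by name from a table of places in the mouse genome where the signal of PARP-1 differed between cocaine and saline. Each of the 5 genes held 1 site, so 5 of the 1727 listed sites, and 5 of the 688 genes with a site, are described here. The sites had entered the table through the comparison of cocaine with saline itself. The cocaine and saline values below are therefore a description, and no test of them was run.

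PARP-1 is a nuclear enzyme that builds chains of ADP-ribose on itself, on histones and on other chromatin proteins. Its place on the genome was mapped by ChIP-seq, the sequencing of chromatin fragments pulled down with an antibody (here the rabbit polyclonal ab6079), in C57BL/6 mice. The tissue was the nucleus accumbens, a ventral striatal region central to reward. The cocaine group received 20 mg/kg by intraperitoneal injection once a day for 7 days, the saline group received saline on the same days, and tissue was taken 30 min after the final dose. Punches of 10 mice went into each ChIP replicate. The labels describe biological triplicates and the series text describes sequencing replicates, so the spread between replicates may be partly technical. The table holds values for 2 cocaine and 3 saline replicates, and the input DNA library has no column in it. No source used here gives age or sex.

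Growing axons read attractive and repulsive cues through receptors on the growth cone, and enzymes inside the cell turn those signals into changes of the actin skeleton. Netrins act through the receptor Dcc, Slits through Robo receptors and their srGAP partners, ephrins through Eph receptors, and repulsive guidance molecules through neogenin. A further group, the Nogo receptor complex with Lingo1, restrains growth in the adult brain. Many of these proteins stay in use at adult synapses.

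At all 5 sites PARP-1 signal was higher after cocaine, by 3.20-fold at Dcc to 4.54-fold at Ephb2. Normalized read counts, which are reads divided by 1 scaling factor per library, had means of 13.4 to 32.2 after cocaine and 2.95 to 9.44 after saline. Among all listed sites 92.9% were higher after cocaine, and among the 770 sites assigned to a gene 97.1%, so the shared direction is that of the table as a whole. At 5 of 5 sites every cocaine replicate exceeded every saline replicate, which was true of 92.2% of all listed sites. The median difference on the log2 scale, after adding 1 to each group mean, was 1.67 over the 5 sites, 1.64 over the sites assigned to a gene and 1.62 over all listed sites. The sites of the 5 genes thus changed by about as much as a typical listed site.

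Read counts per site were low, and relative depth was alike in both groups. The shallowest library had 72.3% of the depth of the deepest, taking the value of 1 read as the measure, and the 2 cocaine libraries were themselves the deepest and the shallowest. Reads could be recovered as whole numbers, and the 5 sites held 28 to 68 reads over both cocaine replicates and 9 to 28 over the 3 saline replicates. Ratios below carry an exact 95% interval computed from these reads summed over replicates. It covers counting error only and leaves out the spread between replicates. It also treats every read as an independent molecule, which PCR copies are not. The interval lay above 1 at 5 of 5 sites, against 91.9% of all listed sites and 96.2% of those assigned to a gene. The sites were listed on these same libraries, so an interval above 1 follows largely from the listing and is no separate support. Every sample pooled all cell types of the punch, so a change in many cells and a larger change in few cells cannot be told apart. No marker of astrocytes, oligodendrocyte lineage, microglia or endothelium held a listed site (0 of 6, 0 of 9 and 0 of 7 genes). Of 12 medium spiny neuron marker symbols 1 held a site, with Drd1 entered under both its older and its current symbol. Of all 21900 protein-coding RefSeq symbols 608 (2.78%) held a site, or 693 (3.16%) with synonyms allowed. With lists this short nothing is read from these counts. A list of differing sites does not show which cell types the tissue held.

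**Figure D1:**
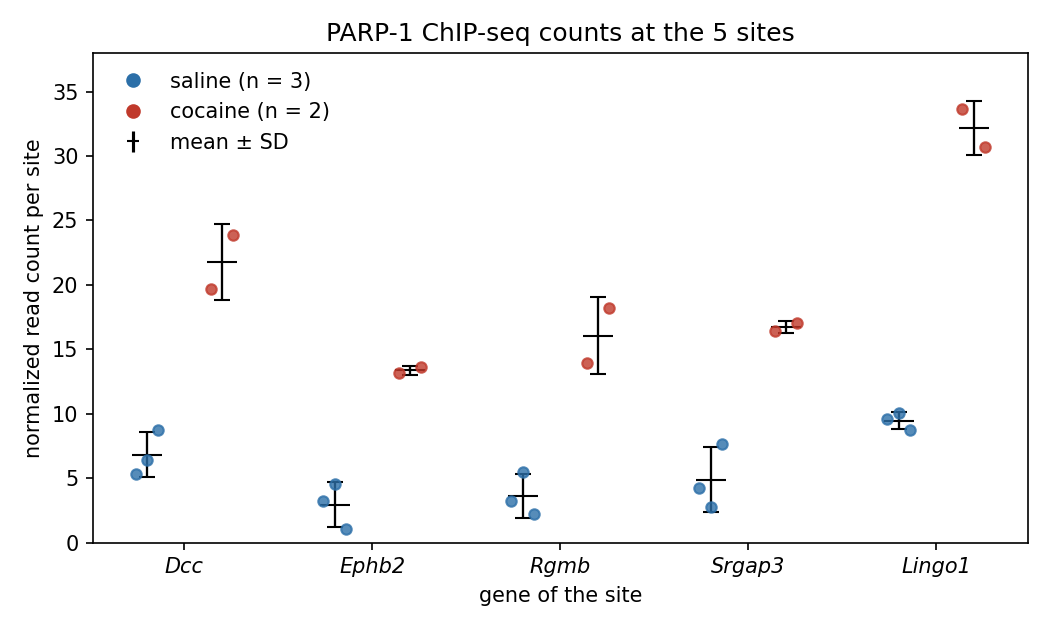
Normalized read count (vertical axis) of every replicate at the site of each gene (horizontal axis), with saline in blue (n = 3), cocaine in red (n = 2) and black bars for mean ± SD. The lowest cocaine value lies above the highest saline value at each site, and Lingo1 has the highest counts in both groups.

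Among the receptors, Dcc binds netrin-1 and steers axons towards or, together with Unc5 proteins, away from its source. The Dcc site lay in the gene body on chromosome 18 (72126001 to 72127200, mm9). The cocaine replicates held 19.7 and 23.9 normalized reads and the saline replicates 5.31, 6.38 and 8.73. Both cocaine values were at least 2.26 times the highest saline value, and the groups did not overlap. The means were 21.8 ± 2.93 (SD, n = 2) and 6.81 ± 1.75 (SD, n = 3), so the means differed by more than both SDs. The ratio from the reads was 3.17 (95% interval 1.83 to 5.67), on 45 cocaine and 20 saline reads. Dcc had the smallest log2 difference of the 5, 1.55, and 26.9% of the higher sites assigned to a gene had a smaller one. Its level was high in both groups: 92.8% of those sites had a lower cocaine mean and 91.6% a lower saline mean.

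Ephb2, a receptor tyrosine kinase for B-type ephrins that also sits at excitatory synapses, held a gene body site on chromosome 4 (136239001 to 136240000, mm9). Its cocaine replicates held 13.1 and 13.6 normalized reads, and its saline replicates 3.19, 4.56 and 1.09. The groups did not overlap, and the third saline replicate stood lowest with a single read (1 read, against 3 and 5 in the other two). The means were 13.4 ± 0.35 (SD, n = 2) and 2.95 ± 1.75 (SD, n = 3), the lowest of the 5 genes in either group. The ratio from the reads was 4.38, and its interval of 2.01 to 10.6, on 28 and 9 reads, was the widest of the 5. The cocaine values were the lowest that any higher site with a mean count under 100 held in these replicates, and 75 of the 1727 listed sites carried exactly this pair. The small SD therefore describes the lower edge of the list, and Ephb2 is the member closest to that edge. Sites that missed the list have no values in the table.

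Rgmb encodes a repulsive guidance molecule, a lipid-anchored surface protein that binds neogenin and acts as a co-receptor for bone morphogenetic proteins. It was the only one of the 5 with a site outside the gene body: the table assigned it to the promoter within 3 kb, centred 2.95 kb upstream of the start (chromosome 17, 15966001 to 15967000, mm9). The cocaine replicates held 14.0 and 18.2 normalized reads and the saline replicates 3.19, 5.47 and 2.18. No cocaine value came near the saline values, the lowest being 2.55 times the highest saline value. The means were 16.1 ± 2.98 (SD, n = 2) and 3.61 ± 1.69 (SD, n = 3). The ratio from the reads was 4.23 (2.08 to 9.27, on 33 and 11 reads). With 1 added to each mean, the log2 difference was 1.89, the largest of the 5 although Ephb2 had the larger ratio, and 90.1% of the higher sites assigned to a gene had a smaller one. The intervals of all 5 ratios overlapped, so with counts this low no order of the 5 genes by ratio could be resolved.

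Inside the cell, Srgap3 encodes a GTPase-activating protein of the Slit-Robo pathway that bends membranes and limits Rac activity. Its gene body site lay on chromosome 6 (112727901 to 112729100, mm9). The cocaine replicates held 16.4 and 17.0 normalized reads and the saline replicates 4.25, 2.74 and 7.64. The third saline replicate lay above the other two, and no saline value reached the cocaine values. The means were 16.7 ± 0.43 (SD, n = 2) and 4.88 ± 2.51 (SD, n = 3), with a ratio from the reads of 3.52 (1.85 to 7.09, on 35 and 14 reads). The site was 1200 bp long, and within it the authors' deposited table gave the best window a log2 fold change of 2.24 against 1.78 for the whole site.

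Lingo1, a transmembrane protein with leucine-rich repeats that joins the Nogo receptor complex and holds back axon growth and myelination, had the highest counts. At its gene body site on chromosome 9 (56488701 to 56490900, mm9) the cocaine replicates held 33.7 and 30.7 normalized reads and the saline replicates 9.56, 10.0 and 8.73. The replicates of each group lay close together and far from the other group. The means were 32.2 ± 2.12 (SD, n = 2) and 9.44 ± 0.66 (SD, n = 3). The ratio from the reads was 3.42, with the narrowest interval of the 5 (2.17 to 5.52, on 68 and 28 reads). In the authors' deposited table it ranked 30 of 1727 by adjusted p (8.32e-06), ahead of Dcc at 0.00059, Rgmb at 0.000779, and Srgap3 and Ephb2 both at 0.00127. These authors' values are part of what placed the sites in the table.

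The height of the Lingo1 site went with its length. It spanned 2200 bp, a length reached by 17 of the 1727 listed sites (0.984%), whereas 56.5% of sites were 1000 bp long. Per kb of site, Lingo1 held 14.6 normalized reads after cocaine and 4.29 after saline. On that scale Dcc was highest with 18.2 and 5.67, Rgmb held 16.1 and 3.61, Srgap3 13.9 and 4.06, and Ephb2 13.4 and 2.95. By total count 96.3% of the higher sites assigned to a gene lay below Lingo1, and per kb 49.3% did. For Dcc the per-kb share was 94.3%. Lingo1 therefore stood out in total reads and not in density.

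The 5 sites differed far more in enrichment than in counts. The authors' deposited enrichment after cocaine, a ratio over a background they set, was 15.7 at Rgmb and 8.72 at Ephb2, but 4.49 at Lingo1, 2.36 at Dcc and 2.04 at Srgap3. The median over the higher sites assigned to a gene was 2.70, and 99.5% of them lay below Rgmb and 95.9% below Ephb2. After saline the ratio was 3.70 at Rgmb, 2.02 at Ephb2 and 1.38 at Lingo1, and it fell under 1 at Dcc (0.77) and Srgap3 (0.62). Dividing each cocaine mean by its enrichment gave the background it implies: 1.02 normalized reads at Rgmb, 1.54 at Ephb2, 7.17 at Lingo1, 8.21 at Srgap3 and 9.23 at Dcc. These backgrounds are per site and not per kb. The sites were 1000 bp long at Rgmb and Ephb2, 1200 bp at Srgap3 and Dcc, and 2200 bp at Lingo1. The high ratios of Rgmb and Ephb2 thus went with a low background rather than with high PARP-1 counts. Only 1.9% and 3.1% of the higher sites assigned to a gene had a lower background. It was worked out from the ratio itself, so at like counts a high ratio must give a low background. These shares are no separate observation. A ratio over about 1 read is itself imprecise, and no source used here says how the background was drawn.

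**Figure D2:**
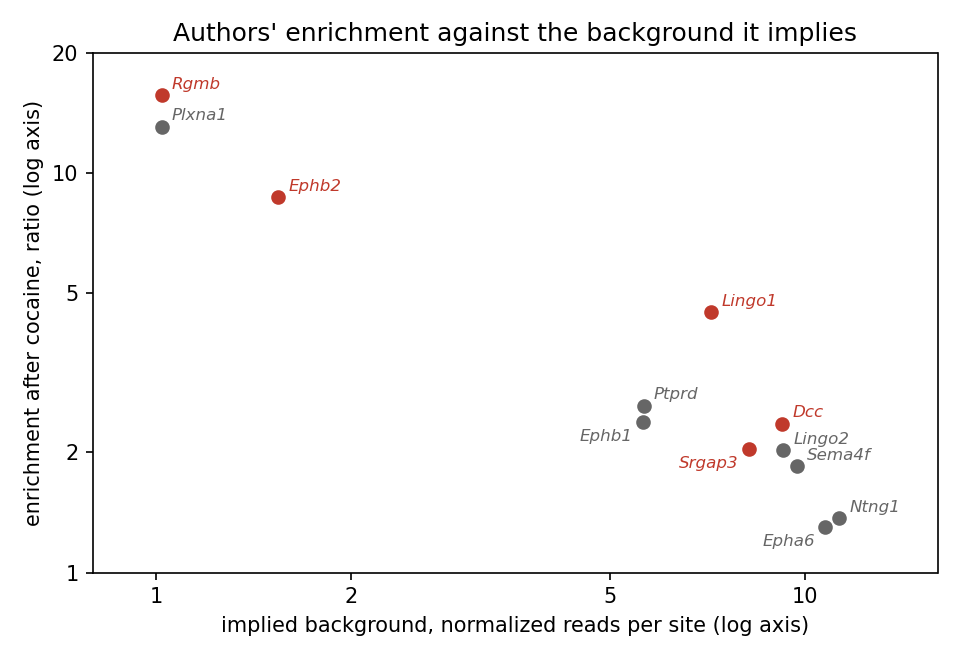
Authors' enrichment after cocaine (vertical log axis, ratio) against the background it implies (horizontal log axis, normalized reads per site) for the 12 sites in axon guidance genes, with the 5 genes in red and the other 7 in grey. Rgmb, Ephb2 and Plxna1 combine the highest ratios with backgrounds of 1.02 to 1.54 normalized reads. The background is the cocaine mean divided by the ratio, so the axes are tied by arithmetic.

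Where the sites lay in their genes was not used to list them. The table annotated 4 of the 5 to the gene body, as it did 89% of sites assigned to a gene, and did not say whether exon or intron. Lingo1 had its site 43.3 kb from the transcription start, at 64.8% of a gene of 66.8 kb. The Ephb2 site lay 152.3 kb from the start, at 83.6% of 182.3 kb, and the Srgap3 site 168.8 kb from it, at 73.6% of 229.3 kb. Dcc spanned 1097.4 kb, longer than the genes of 97.2% of the higher sites, and its site lay 384.1 kb in, at 35.0%. Rgmb was the short gene of the group at 20.3 kb. The median distance from the start was 35.4 kb over the higher sites assigned to a gene, so Rgmb lay nearer than that and the other 4 farther. The nearest other listed site was 196.6 kb away at Srgap3 and 229.8 kb at Ephb2. It was 889.7 kb away at Dcc, 1039.0 kb at Lingo1 and 1474.9 kb at Rgmb. The usual spacing of listed sites was not worked out, so these distances are not called long or short. Holding a single site, as all 5 genes did, was the rule in the table, for 635 of the 688 genes (92.3%).

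**Figure D3:**
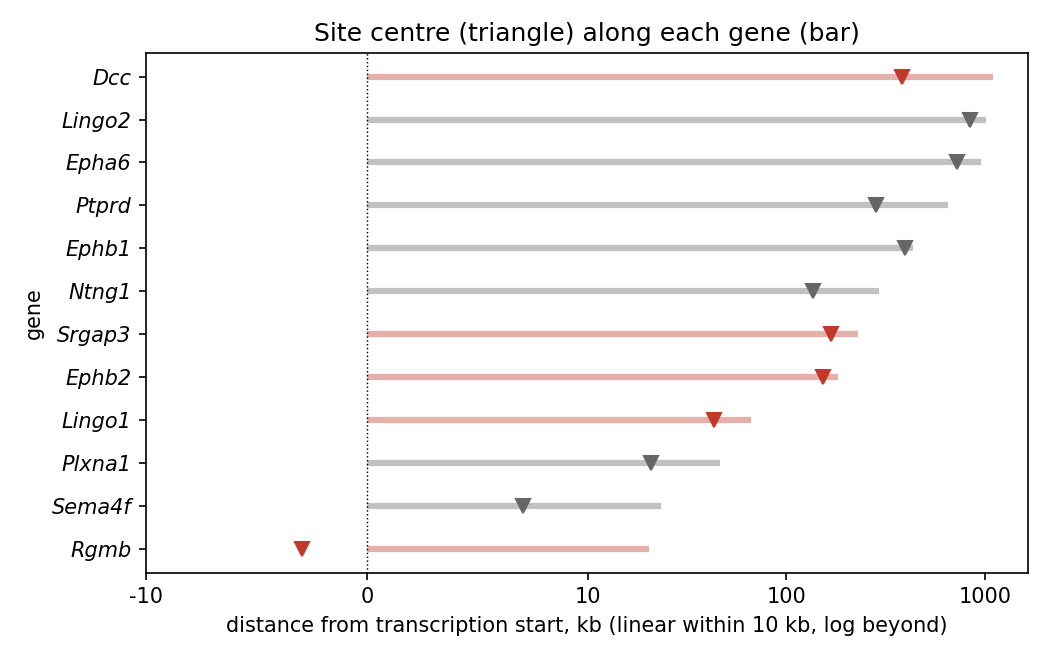
Site centre (triangle) along each of the 12 axon guidance genes with a site (bar from transcription start to end), against distance from the start in kb, on an axis that is linear within 10 kb and logarithmic beyond. Rgmb alone has its site upstream of the start, and the other sites lie 7.09 to 838.3 kb downstream.

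No site was centred within the 250 bases before its gene's start. To show sequence near the starts, the 250 bases upstream of the most upstream RefSeq start are printed for the 4 genes found in the promoter table, in GRCm38.p6, whose coordinates cannot be set against the mm9 sites. RefSeq gives 3 starts for Rgmb and 2 for Lingo1, so the start printed need not be the one from which the table measured. They read 5′ to 3′ along the gene, and capitals mark GGGCGG, the core of the GC box, and TATAAA, the TATA box core, each searched on both strands without overlap with the other.
Rgmb (chr17:15831247-15831496, minus strand): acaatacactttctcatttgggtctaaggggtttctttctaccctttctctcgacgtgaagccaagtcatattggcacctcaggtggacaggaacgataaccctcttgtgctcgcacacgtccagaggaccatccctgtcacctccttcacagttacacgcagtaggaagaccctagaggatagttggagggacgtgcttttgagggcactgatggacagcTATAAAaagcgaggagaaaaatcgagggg
Ephb2 (chr4:136836013-136836262, minus strand): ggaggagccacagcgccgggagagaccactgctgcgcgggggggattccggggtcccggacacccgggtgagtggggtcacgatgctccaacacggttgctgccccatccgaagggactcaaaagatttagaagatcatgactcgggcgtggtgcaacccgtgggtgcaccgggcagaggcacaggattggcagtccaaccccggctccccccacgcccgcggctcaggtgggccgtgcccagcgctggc
Srgap3 (chr6:112947267-112947516, minus strand): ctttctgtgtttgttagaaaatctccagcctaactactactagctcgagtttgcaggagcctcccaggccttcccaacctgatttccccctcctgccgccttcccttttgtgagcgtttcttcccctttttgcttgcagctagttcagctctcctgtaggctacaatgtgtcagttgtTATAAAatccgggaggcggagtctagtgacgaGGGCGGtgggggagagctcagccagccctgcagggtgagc
Lingo1 (chr9:56796311-56796560, minus strand): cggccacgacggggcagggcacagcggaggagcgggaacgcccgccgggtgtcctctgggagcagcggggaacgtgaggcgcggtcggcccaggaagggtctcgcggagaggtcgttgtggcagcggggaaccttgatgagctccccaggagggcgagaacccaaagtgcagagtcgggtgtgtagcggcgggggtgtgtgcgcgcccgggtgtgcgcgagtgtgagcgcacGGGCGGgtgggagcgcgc

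These upstream regions had little in common. Lingo1 had 72.8% G and C with 31 CG dinucleotides and Ephb2 68.4% with 20, whereas Rgmb had 50.0% with 9 and Srgap3 54.0% with 7. The medians over 32851 RefSeq windows of this length were 52.4% and 6. GGGCGG occurred in 1 copy at Srgap3 and in 1 at Lingo1, and 32.7% of all windows hold it. TATAAA occurred in 1 copy at Rgmb and in 1 at Srgap3, and 12.4% of windows hold it. The cAMP response element TGACGTCA, found in 1.5% of windows, was in 0 of the 4. A match here is a string of letters and not a measured binding site.

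The wider pathway was read from a list of 131 genes of guidance and growth inhibition, of which 12 held a listed site, 1 each. Of the 130 list genes with a RefSeq symbol this is 9.23%, and of all 21900 protein-coding RefSeq symbols 608 (2.78%) held a site. With synonyms allowed the shares were 9.23% and 3.16%. The list genes were also longer, with a median of 85.5 kb against 17.1 kb, and the list was written with some of these sites known, so nothing is read from these shares. All 12 sites were higher after cocaine and 0 were lower. At 12 of 12 every cocaine replicate exceeded every saline replicate. Both counts lie close to the shares in all listed sites given above. The median log2 difference was 1.65 over the 12 and 1.64 over the 7 sites outside the 5 genes, equal to or near that of all sites assigned to a gene. Whether sites were more frequent in this list than in genes of like length was not tested.

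The 7 further genes fell in 4 of the families. Of 15 netrin ligands and receptors, Ntng1, a membrane-bound netrin that does not act through Dcc, joined Dcc, with means of 15.4 ± 2.55 and 4.27 ± 2.10 normalized reads (SD, n = 2 and 3, cocaine then saline). The 22 ephrins and Eph receptors gave 3 genes, all receptors: beside Ephb2, Ephb1 held 13.4 ± 0.35 and 3.54 ± 2.36, and Epha6 14.0 ± 1.15 and 3.80 ± 1.46. Ephb1 had the same pair of lowest cocaine values as Ephb2. Of 15 growth inhibition genes, Lingo2, a relative of Lingo1, held 18.8 ± 5.61 and 4.67 ± 2.21, and Ptprd, a receptor phosphatase that organizes synapses, 14.8 ± 0.01 and 4.38 ± 1.03. The 31 semaphorins, plexins and neuropilins gave Plxna1, a co-receptor for secreted semaphorins, with 13.4 ± 0.35 and 3.41 ± 1.67, and Sema4f, a membrane-bound semaphorin, with 18.0 ± 1.31 and 6.08 ± 0.67. Srgap3 was alone among 10 Slit, Robo and srGAP genes, and Rgmb alone among 8 repulsive guidance and bone morphogenetic protein genes. None of the 30 intracellular effectors, such as the collapsin response mediators, held a listed site (0 of 30). Over all protein-coding RefSeq symbols the share with a site was 2.78%, so with families this small nothing is read from these counts.

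**Figure D4:**
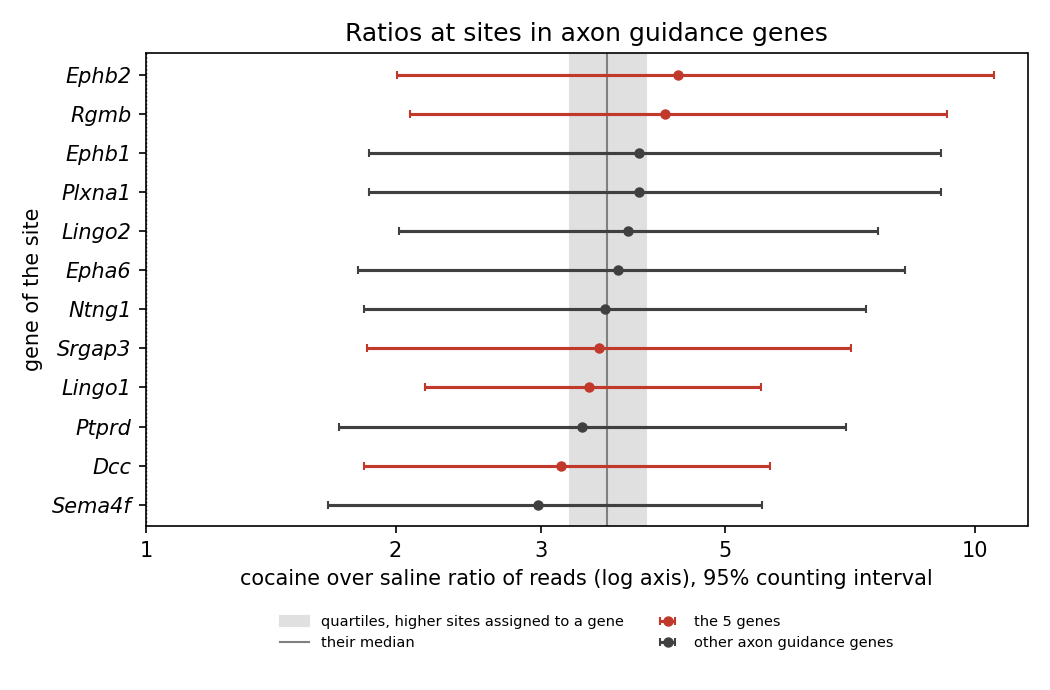
Cocaine over saline ratio of reads (horizontal log axis) with its exact 95% counting interval for the 12 sites in axon guidance genes (vertical axis), the 5 genes in red and the other 7 in dark grey. The grey band and line are the quartiles (3.25 to 4.01) and median (3.60) of the ratio of means over the 748 higher sites assigned to a gene. Every interval crosses the band and lies above 1, which the listing of the sites on the same libraries largely ensures.

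Sites with nearly the same replicate values were found in genes outside the axon guidance list. Likeness was measured as the Euclidean distance over the 5 replicates in log2(value + 1). The closest to Ephb2 was a site in Fbxw4 at a distance of 0.00, with the same value in each of the 5 replicates, followed by Muted at 0.11. Auts2 (0.12) was close to Rgmb, and Klf12 (0.09) and Dpyd (0.12) were closest to Srgap3. Dcc was matched by 9930013L23Rik (0.29) and Adam12 (0.35), and Lingo1, less closely, by Slco3a1 (0.67) and Gpc6 (0.69). With counts this low few values are possible, so equal values arise easily and say nothing of shared control.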

How the data were processed

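PARP-1 ChIP-seq reads came from pooled mouse nucleus accumbens tissue, amplified with 21 PCR cycles and sequenced at 100 bp, per the labels' protocols. The submitters' processing notes name CASAVA 1.8.2 and the build mm9. The aligner, duplicate handling and window settings: not given in the sources used here. The deposited table's name gives diffReps with a negative binomial test, cocaine against saline, and its control columns were read as saline, which the series text calls the control. Deposited replicate values are normalized read counts joined in 1 cell per group, and the deposited averages are a signal, their mean. The authors' enrichment is a ratio over background, not finite at 2 sites and left out there. The authors' fold change is a log2 value, and the p-value columns, raw and adjusted, were quoted as deposited, not recomputed. The largest window p was 9.95e-05.

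Within each library, 8632 of 8635 values were whole multiples of 1 step within 0.1 read, and steps were 0.822 and 1.14 (cocaine) and 1.06, 0.912 and 1.09 (saline). Reads were summed per group, and exact conditional (Clopper-Pearson) 95% intervals of the ratio were computed with scipy. They were checked on simulated independent reads, without PCR copies, at sites not selected on the contrast. The check therefore does not show their coverage at the listed sites. The log2 difference used a pseudocount of 1. No test was run, since the sites were selected on the same libraries, which can overstate fold changes. The 5 genes, the list of 131 genes (130 matched RefSeq symbols) and the alternatives were chosen with earlier results of these data known. Named genes are the 5 genes, list genes with a site, and the 2 closest sites in replicate values, of which 1 is not reported here. Replicate numbers only give the order in the table. Promoter sequences were RefSeq's, GRCm38.p6, and 4 of 5 genes matched.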

Additional observations from a re-analysis of the deposited data

How the results depend on the processing

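All 5 sites stayed higher after cocaine, and their groups stayed apart, when reads were used without the scaling factors. At each site the lowest cocaine value was at least 2.15 times the highest saline value. Steps of 0.822 to 1.14 are too alike to close such gaps, so this outcome was fixed in advance. The same held when any 1 of the 5 replicates was left out, and that outcome too was fixed in advance. Groups that do not overlap cannot come to overlap when a value is removed. The median log2 difference over the 5 sites was 1.67 to 1.71 with 1 replicate left out and 1.21 to 1.76 over all alternatives. Single sites ranged more widely with 1 replicate left out: 1.41 to 1.74 at Dcc, 1.56 to 2.20 at Ephb2, 1.68 to 2.21 at Rgmb, 1.35 to 1.98 at Srgap3 and 1.60 to 1.73 at Lingo1. A pseudocount of 5 lowered all 5 sites, to 1.18 at Dcc, 1.21 at Ephb2, 1.29 at Rgmb, 1.14 at Srgap3 and 1.36 at Lingo1. With only sites at an authors' adjusted p under 0.001, 3 of the 5 sites and 3 of the 12 list sites remained. Fewer sites were eligible (408 of 1727). Those that remained were higher, but all 12 had been higher before the cut, so it could not change the direction. No pairing of cocaine with saline replicates is given, and the table holds 2 cocaine and 3 saline values without replicate numbers. No paired analysis was therefore run. Each fit without a cocaine replicate rests on 1 cocaine sample, and saline values of 1 to 11 reads per replicate set the precision.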

Other observations

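All 12 sites in axon guidance genes, those of Dcc, Ephb2, Rgmb, Srgap3 and Lingo1 included, were assigned to genes on the minus strand, against 405 of the 770 sites assigned to a gene (52.6%). The pattern was noticed after the values were seen and was not tested.

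Within the Dcc site the authors' deposited table gave the best window a log2 fold change of 1.62, below the 1.68 of the whole site. At Lingo1 the window had 2.04 against 1.77 for the site. For Ephb2 and Rgmb the window and the site were the same stretch.

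The gene nearest to Rgmb with a listed site at higher coordinates was Vmn2r98, 3225.1 kb away, and its promoter site was lower after cocaine (log2 difference -1.59). It was the only lower site among the 10 neighbours of the 5 sites on either side. Among all listed sites 92.9% were higher, so a lone lower neighbour lies close to the share in the table as a whole.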
